A study of Homo sapiens with 8 samples.

Results

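A set of 10 genes of the cytosolic and mitochondrial heat shock machinery were followed over 8 arrays of cancer cells in which the surface protein CD24 was lowered by shRNA or bound by an antibody. The genes are HSP90AA1, HSP90AB1, HSPH1, HSPA4, HSPA4L, HSPA8, HSPD1, HSPE1, CHORDC1 and DNAJA1, and their members in the data are all probe sets whose only annotated gene symbol is one of these names. There were 19 such probe sets among 22215 non-control ones, and they covered 9 of the 10 genes. HSPA8, the constitutive cytosolic HSP70, had no probe set of its own: the 3 that carry its symbol also carry those of small nucleolar RNAs, so it has no value here. The arrays were hybridised with RNA of 7 groups. HT29, a human colorectal cancer line, gave an HT29-derived clone with a vector for CD24-directed shRNA (1 array, clone 833 in its label), HT29-derived clones with 2 such vectors (2 arrays, clones G and E, called here the first and the second 2-vector clone), a clone with a vector for GFP-directed shRNA (1 array), antibody-treated cells (1 array) and untreated parental cells (1 array). Colo357, a human pancreatic cancer line, gave 1 antibody-treated and 1 untreated array. The antibody was SWA11, an anti-CD24 monoclonal antibody, at 1:40 for 72 h. Each shRNA group is a clone of HT29, so a difference of a clone from the line and a difference due to its vector cannot be told apart with 1 control clone. A control antibody was not analysed here. The RNA came from whole cultures, in which a lower level in every cell and a loss from some of the cells cannot be told apart.

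Heat shock proteins are molecular chaperones, which bind unfolded or partly folded proteins and use ATP to help them fold. HSP90 finishes the folding of kinases and steroid receptors in the cytosol, HSP70 with its J-domain partners takes up earlier intermediates, the HSP110 proteins release nucleotide from HSP70, and HSP60 with HSP10 forms the folding chamber of mitochondria. Many of these genes are induced together by the transcription factor HSF1, which binds heat shock elements made of alternating GAA and TTC units. Tumour cell lines commonly express HSP90 and HSP60 at high levels without any heat shock.

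The promoter sequences are shown because many genes of this kind are induced through HSF1 elements. RefSeq promoter windows (GRCh38.p14, 250 bases before to 50 after each annotated start) were found for 10 of 10 genes, 16 windows in all. They were searched for the 3-unit element GAANNTTCNNGAA and its reverse complement TTCNNGAANNTTC, so that both strands were covered, and overlapping matches were counted. A match stood in windows of 6 of the 10 genes (HSP90AA1, HSP90AB1, HSPA8, HSPD1, CHORDC1 and DNAJA1), against 0.49% of all 35116 windows and 0.608% of all 27305 genes. The windows of HSPH1, HSPA4, HSPA4L and HSPE1 held no match to these letters. Below, capitals mark the 3-unit matches and each sequence runs 5′ to 3′ on the gene's strand. HSP90AA1 and CHORDC1 are shown over the 100 bases before the start, the others over 30 bases around a match.
HSP90AA1 (chr14:102087045-102087144, minus strand): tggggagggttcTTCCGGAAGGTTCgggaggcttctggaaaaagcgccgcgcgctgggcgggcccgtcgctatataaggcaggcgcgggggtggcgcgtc
CHORDC1 (chr11:90223050-90223149, minus strand): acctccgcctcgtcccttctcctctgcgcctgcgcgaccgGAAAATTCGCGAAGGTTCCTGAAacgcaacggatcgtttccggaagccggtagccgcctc
HSP90AB1 (chr6:44247769-44247798, plus strand): gggagcaggTTCTGGAAGATTCatgggctc
HSPD1 (chr2:197500061-197500090, minus strand): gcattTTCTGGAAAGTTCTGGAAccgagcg
DNAJA1 (chr9:33025267-33025296, plus strand): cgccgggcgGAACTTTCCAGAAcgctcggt
CHORDC1 had the longest run, with 3 overlapping matches between 60 and 38 bases before its start. In HSP90AA1 the match lay 88 to 76 bases before the second annotated start. HSPD1 and HSPE1 stand head to head on chromosome 2, where the HSPD1 locus ends at 197500274 and that of HSPE1 begins at 197500379. The HSPD1 match lies inside the HSPD1 locus, upstream of the second annotated start at 197499840. The windows of the first HSPD1 start and of HSPE1, which cover the stretch between the loci, held no match.

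The deposited intensities were scaled alike, with a trimmed mean of 250.1 on each array and medians from 32.4 to 63.1. CD24, the targeted gene, read 558, 171.7 and 595.5 in the 3 CD24 shRNA clones, against 7362.5 in the GFP clone and 6425.1 in parental HT29, lower in each clone labelled as CD24-directed. The array of the first 2-vector clone stood apart in its RNA controls, with 1.77 for the ratio of the ACTB 3′ probe set to its 5′ probe set (1.06 to 1.17 elsewhere) and 434.8 for the 3′ probe set of 18S rRNA (14.7 to 48 elsewhere). Of 8 intestinal epithelial markers, CDX2, CDX1, CDH17 and GPA33 read 33.9 or less in HT29, treated and untreated. TFF3 read 117.5 with 1 CD24 vector and 20.9 to 40.6 in the other clones, against 83.4 and 75.2 in treated and untreated HT29. CEACAM5 read 58.2 with the GFP vector and 17.5 to 21 with CD24 vectors, against 41.9 and 56.9 in treated and untreated HT29. Neither TFF3 nor CEACAM5 was lower than HT29 in every clone. LGALS4 read 584.5 in the GFP clone and 32.5 to 682.2 in the CD24 shRNA clones, against 5625.5 and 4581.5 in treated and untreated HT29. VIL1 read 105.5 in the GFP clone and 25 to 248.5 in the CD24 shRNA clones, against 1408.3 and 439.3 in treated and untreated HT29. Of 5 epithelial markers, CDH1, E-cadherin, read 15.4 or less in the 4 clones, against 2209.7 and 2172.8 in treated and untreated HT29. EPCAM read 1307.8 to 3546.3 in the clones, against 4068.3 and 4027.6 in treated and untreated HT29. KRT8, KRT18 and KRT19 were not lower in the clones as a group, and KRT8 read 11018.9 to 14029.2 there, against 10594.8 and 9108.5 in treated and untreated HT29. The part of these markers in the chaperone differences was not tested.

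The first question was whether the chaperones differed in HT29 clones with lowered CD24. All 19 probe sets were lower on average in the 3 CD24 shRNA clones than in the GFP clone and parental HT29, and 15 of them were lower by 2-fold or more, where 19.6% of the 11420 probe sets tested were. The median difference of the 19 was -1.54 on the log2 scale (log2(intensity + 10) throughout), beside -0.07 for all probe sets tested. Probe sets of 1 gene are not independent. Counted by gene, on the brightest probe set, the median of the 9 genes was -1.17. By that count 6 genes were lower by 2-fold or more, and 5 lay below both controls in all 3 clones. None of the 19 passed the limma test at adjusted p 0.05, and no probe set of the whole table did (0.0% of 11420), although 2211 had an unadjusted p under 0.05. Of the 19, 12 had an unadjusted p under 0.05 and were lower, against 14.3% of all. All 3 clones lay below both controls at 14 of the 19, as they did at 22.7% of all probe sets. Low readings came from the 1-vector clone and the first 2-vector clone, which gave the lowest reading of the 8 arrays at 8 probe sets each. The second 2-vector clone gave it at 0 of 19.

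**Figure D1:**
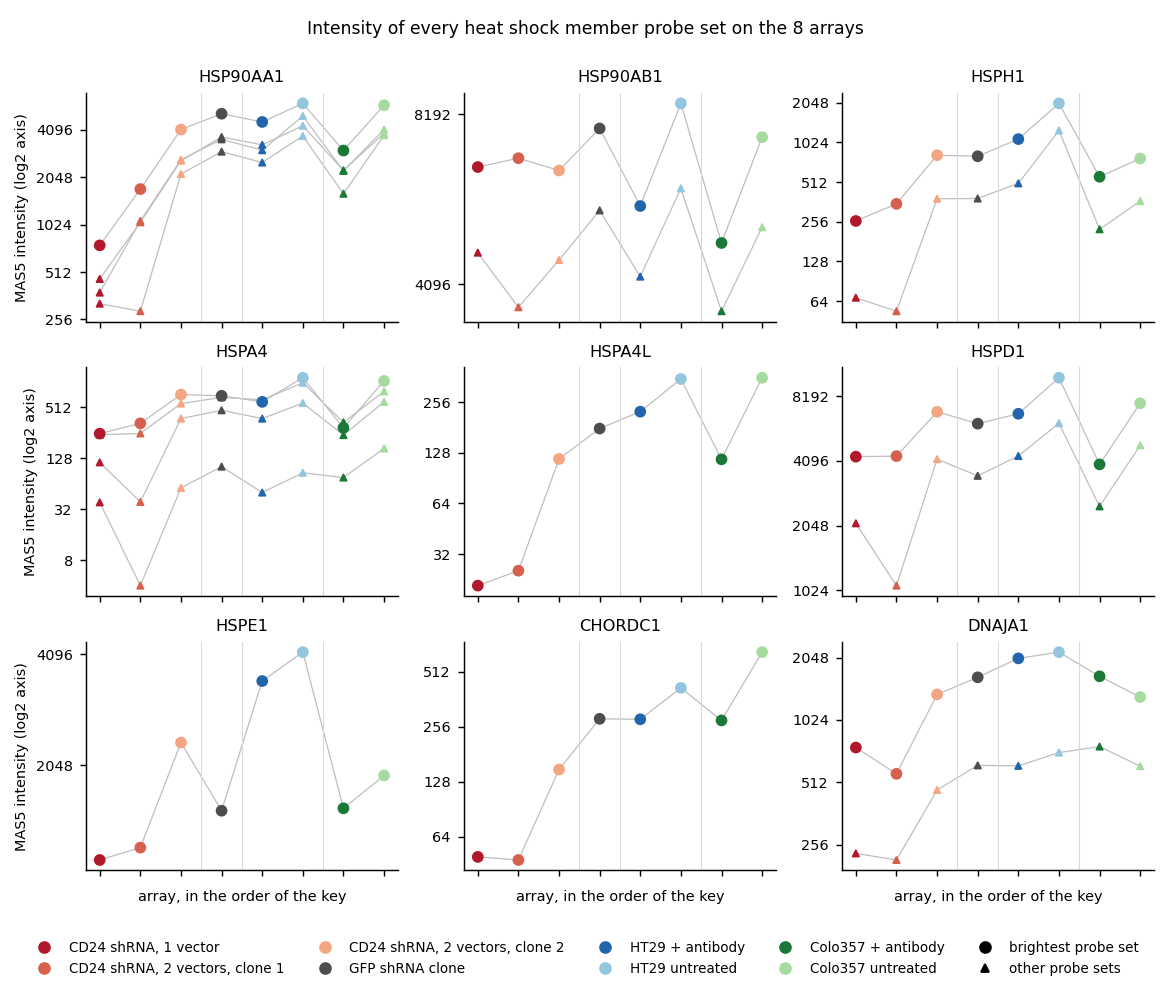
MAS5 intensity (vertical, log2 axis) of the 19 member probe sets on the 8 arrays, 1 panel per gene, with the CD24 shRNA clones at the left of each panel, then the GFP clone, treated and untreated HT29, and treated and untreated Colo357; large circles are the brightest probe set of a gene and lines join the readings of a probe set. The 1-vector clone and the first 2-vector clone lie lowest for most genes, with brightest probe sets from 20.8 (HSPA4L) to 6846 (HSP90AB1), while HSP90AB1 stays between 4849.5 and 8555.3 on all 8 arrays.

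HSP90AA1, the stress-inducible cytosolic HSP90 (chr14:102080742-102139749), read 756.5 with 1 CD24 vector and 1723.9 and 4123.8 with 2 on its brightest probe set, 214328_s_at, against 5197.8 in the GFP clone and 6047.7 in parental HT29. The 3 clones lay below both controls but differed more among themselves than the controls did. Log2 means of 10.79 ± 1.22 for the clones (SD, n = 3) and 12.46 ± 0.15 for the controls (SD, n = 2) gave a difference of -1.67 ± 0.67 (limma SE; adjusted p = 0.247). The other 3 probe sets of the gene gave -1.87 to -2.49, with no overlap between clones and controls on any of the 4.

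HSP90AB1, the constitutive cytosolic HSP90 (chr6:44246194-44253883), read 6604.1 with 1 CD24 vector and 6846 and 6513 with 2, against 7725.6 in the GFP clone and 8555.3 in parental HT29. It was the member with the smallest difference, -0.29 ± 0.34 (limma SE; adjusted p = 0.635; 95% interval -1.08 to 0.50), although the groups did not overlap, since its 3 clones varied by an SD of only 0.04. Its second probe set gave -0.43. For both probe sets an exact permutation test, two-sided, returned p = 0.1, the least that 10 splits of 5 arrays allow. In the same test the other member probe sets returned p of 0.2 to 0.4, with 0.2 for CHORDC1, whose groups did not overlap either. A match to the heat shock element was found at HSP90AB1 and at HSP90AA1, and the letters shown above say nothing of whether HSF1 was bound.

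CHORDC1 codes for a co-chaperone of HSP90, also called CHP1 or morgana (chr11:90200429-90223049). It read 49.6 with 1 CD24 vector and 47.7 and 149.2 with 2, against 282.6 in the GFP clone and 417.2 in parental HT29. The groups did not overlap, and the second 2-vector clone lay between the other clones and the controls. The difference was -2.11 ± 0.54 (limma SE), a 4.32-fold lower level, with the smallest unadjusted p of the 19 probe sets (0.0052) and an adjusted p of 0.234. DNAJA1, a J-domain partner of HSP70 (chr9:33025273-33039907), read 754.1 with 1 CD24 vector and 563.2 and 1359.6 with 2, against 1644.6 in the GFP clone and 2175.2 in parental HT29. Its 2 probe sets gave -1.17 and -1.18, and neither overlapped.

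The HSP110 proteins HSPH1, HSPA4 and HSPA4L are large relatives of HSP70 that act as its nucleotide exchange factors. HSPA4L (chr4:127781796-127840733) read 20.8 with 1 CD24 vector and 25.5 and 117.5 with 2, against 178.1 in the GFP clone and 350.7 in parental HT29. The first 2 of these readings lie under 45, the median of all non-control values, so the difference of -2.33 ± 0.67 (limma SE; adjusted p = 0.234) rests on dim readings in the clones. HSPH1 (chr13:31134973-31162388) read 259.5 with 1 CD24 vector and 349.9 and 818 with 2, against 803 in the GFP clone and 2021.3 in parental HT29. The second 2-vector clone and the GFP clone were alike, and parental HT29 stood above all 4 clones. HSPH1 differed by -1.57 ± 0.61 on this probe set and by -2.50 ± 0.86 on the dimmer 208744_x_at (limma SE; adjusted p = 0.244 and 0.234). HSPA4 (chr5:133052013-133106449) read 250.9 with 1 CD24 vector and 331.9 and 726.7 with 2, against 702.5 in the GFP clone and 1148.2 in parental HT29, and its 4 probe sets gave -1.17 to -2.0. On 208815_x_at, the brightest, the second 2-vector clone lay above the GFP clone.

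Both genes of the mitochondrial chaperonin were lower on average in the clones, with no test passed. HSPD1, the chaperonin HSP60 (chr2:197486584-197500274), read 4283 with 1 CD24 vector and 4307.7 and 6924.2 with 2, against 6101.3 in the GFP clone and 9974.3 in parental HT29, a difference of -0.63 ± 0.42 (limma SE; adjusted p = 0.414), and its second probe set, 200806_s_at, gave -1.13 ± 0.61. HSPE1, its HSP10 lid (chr2:197500379-197503449), read 1131.9 with 1 CD24 vector and 1223.1 and 2359.6 with 2, against 1540.5 in the GFP clone and 4154.7 in parental HT29, a difference of -0.77 ± 0.55 (adjusted p = 0.446). In both genes the second 2-vector clone lay above the GFP clone, and parental HT29 was highest. The order of the 5 arrays was the same in both genes.

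Set against the GFP clone, the 1-vector clone was lower at 19 of 19 probe sets (median -1.45, 14 at 2-fold or more) and the first 2-vector clone at 19 of 19 (median -1.59, 15 at 2-fold). The second 2-vector clone was lower at 14 of 19, with a median of -0.29 and 0 at 2-fold. Over all probe sets tested, 26.1%, 30.2% and 9.1% were lower by 2-fold or more in these 3 clones than in the GFP clone. CD24 was low in the second 2-vector clone as well, as given above. Without that clone, 10 of the 19 passed the limma test, all lower, where 9.6% of 11450 probe sets did; HSP90AA1 (-2.28), HSPA4L (-2.98) and CHORDC1 (-2.59) were the genes that passed on their brightest probe set. Without the first 2-vector clone, whose RNA controls stood apart, 2 of 19 had an unadjusted p under 0.05 and were lower (6.49% of all), and without the 1-vector clone 2 of 19 (7.29%). The ACTB ratio of the 1-vector array was 1.07. The part of RNA quality in these values was not tested.

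**Figure D2:**
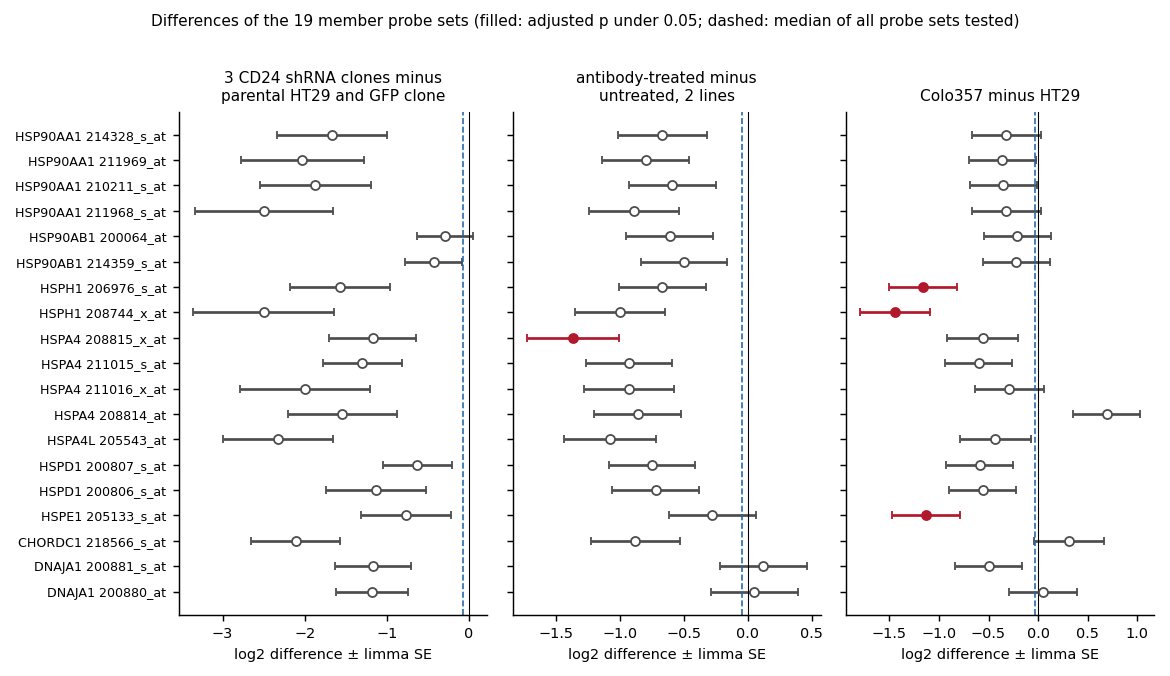
Log2 differences (horizontal, with limma SE bars) of the 19 member probe sets for the 3 CD24 shRNA clones minus both controls (left), antibody-treated minus untreated cells over both lines (middle) and Colo357 minus HT29 (right); filled points passed adjusted p 0.05 and the dashed line is the median of all probe sets tested. All 19 lie below 0 at the left, 17 of 19 in the middle and 16 of 19 at the right, with 0, 1 and 3 filled points.

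Probe sets of 1 gene did not always move together, and most of the disagreement was on 1 array. A dimmer probe set was divided by the brightest of its gene for 10 ratios, and the first 2-vector clone gave the lowest of the 8 arrays for 6 of them. For HSP90AA1, 211968_s_at read 0.167 of the brightest probe set there and 0.426 to 0.645 on the other arrays. For HSPA4 the ratio of 211016_x_at was 0.118 there and 0.457 to 0.82 elsewhere, and for HSPD1 that of 200806_s_at was 0.25 there and 0.49 to 0.638 elsewhere. The ACTB ratio of that array was 1.77, as given above, and the part of RNA quality in these ratios was not tested. HSPH1 208744_x_at had low ratios in both low clones, 0.262 in the 1-vector clone and 0.153 in the first 2-vector clone, against 0.4 to 0.623 on the other 6 arrays. The 1-vector clone gave the lowest ratio for the other 2 HSP90AA1 probe sets, at 0.612 and 0.501.

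**Figure D3:**
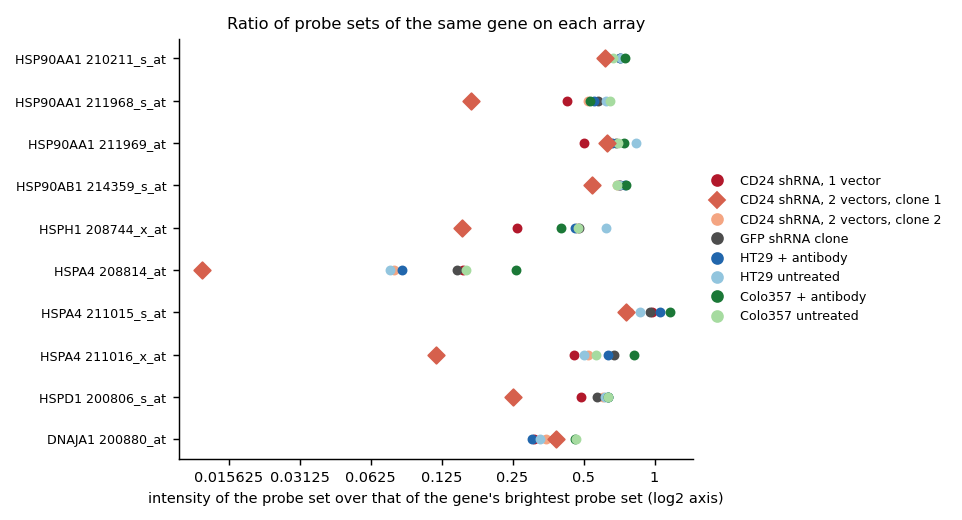
Intensity of each dimmer probe set over that of the brightest probe set of the same gene (horizontal, log2 axis), 1 row per probe set and 1 point per array; diamonds are the first 2-vector clone. The diamonds lie apart at the left for HSP90AA1 211968_s_at (0.167), HSPA4 211016_x_at (0.118) and HSPD1 200806_s_at (0.25); for HSPA4 208814_at the diamond rests on a reading of 4, under the filter of 45.

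The GFP clone shows how far a clone without CD24 shRNA lay from the parental line, 1 array against 1, with no test. In the GFP clone 18 of the 19 probe sets were lower (43.6% of all 11773 probe sets were), 3 of them by 2-fold or more (6.35% of all). These were HSPE1, at 1540.5 in the GFP clone and 4154.7 in parental HT29 (-1.43), and both probe sets of HSPH1, at 803 and 2021.3 on the brightest (-1.32) and -1.69 on the other. HSP90AA1 (-0.22), DNAJA1 (-0.40) and HSP90AB1 (-0.15) differed little between these 2 arrays. The HSPE1 reading of the GFP clone lay between those of the CD24 shRNA clones.

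All 4 shRNA clones were then compared with uncloned HT29, treated and untreated. The arrays are shared with the other comparisons, and antibody treatment is part of this reference. All 19 probe sets were lower on average in the clones, 12 by 2-fold or more (11.1% of 11417), with a median of -1.19 against 0.00 for all. None passed adjusted p 0.05 in limma, where 0.648% of probe sets were called lower, and 5 had an unadjusted p under 0.05 and were lower (7.73% of all). The clones lay below both uncloned arrays without overlap at 6 probe sets (13.8% of all), which belong to HSPE1, HSPH1, HSPA4L, DNAJA1 and HSPD1. HSPE1 had the smallest p, with readings of 1540.5, 1131.9, 1223.1 and 2359.6 in the GFP, 1-vector and 2-vector clones, against 3467.5 and 4154.7 in treated and untreated HT29 (-1.34 ± 0.38, limma SE; adjusted p = 0.118). HSP90AB1 differed by -0.01 ± 0.31. CDH1, EPCAM, LGALS4 and VIL1 also read lower in the 4 clones than on both uncloned arrays, while KRT8 read higher, as given above.

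Clones with 2 vectors were set against the clone with 1, without a test. Of the 18 probe sets above the intensity filter, 17 were higher with 2 vectors (51.8% of all 10785 were). At 5, both 2-vector clones lay above the other clone and their mean was 2-fold or more higher, as at 5.65% of all. These were the 3 brighter HSP90AA1 probe sets, with 3.49-fold on 214328_s_at, and 1 each of HSPH1 (2.03-fold) and HSPA4L (2.18-fold). CHORDC1 read 47.7 and 149.2 with 2 vectors and 49.6 with 1, and HSPA4L 25.5 and 117.5 with 2 and 20.8 with 1, so that the high reading was that of the second 2-vector clone. Leaving out a 2-vector clone changed the count at 2-fold for all probe sets as well as for members, as given below. Those counts are thus no result about the members.

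The other question was how cells responded to 72 h of antibody. In HT29 all 19 probe sets were lower after treatment (55.2% of all 11016 were), by -0.10 to -1.31, with a median of -0.56 against -0.07 for all. One of them, HSPH1 208744_x_at, was lower by 2-fold or more, as were 8.13% of all. In Colo357 17 of 19 were lower (53.5% of all 11836) and 7 by 2-fold or more (14% of all), with a median of -0.94. These within-line values compare 1 array with 1 array and have no test.

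HSPA4 had the largest antibody difference. It read 595.7 after treatment and 1148.2 in untreated HT29, and 293.9 after treatment and 1054.5 in untreated Colo357. Over both lines it fell by 1.37 ± 0.36 on the log2 scale (limma SE, n = 2 lines; adjusted p = 0.0432), the only member past the test, in a fit where 3.89% of 11785 probe sets were called lower and 1.74% higher. The other 3 HSPA4 probe sets gave -0.86 to -0.93, with adjusted p of 0.122 to 0.143 in limma. This call was lost, with the difference between -1.37 and -1.40, under 6 of the 7 alternatives, among them quantile normalization, for which no probe set of the table passed. With 1 residual degree of freedom, the SE of this fit draws mostly on the spread of all probe sets.

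Other HSP110 and HSP90 members were lower in both lines but did not pass. HSPA4L read 224.3 after treatment and 350.7 in untreated HT29, and 116.9 after treatment and 356.6 in untreated Colo357 (-1.08 ± 0.36, limma SE; adjusted p = 0.0915). HSPH1 read 1083.5 and 2021.3 in treated and untreated HT29 and 561.2 and 772.1 in treated and untreated Colo357 (-0.67 ± 0.34). HSP90AA1 read 4607.7 and 6047.7 in treated and untreated HT29 and 3032.3 and 5885.7 in treated and untreated Colo357 (-0.67 ± 0.35). HSP90AB1, which hardly varied in the clones, was lower by about the same amount in both lines: 5636.2 and 8555.3 in treated and untreated HT29, 4849.5 and 7454.8 in treated and untreated Colo357 (-0.60 and -0.62). CHORDC1 read 280.9 and 417.2 in treated and untreated HT29 and 276.9 and 654.8 in treated and untreated Colo357 (-0.88 ± 0.35; adjusted p = 0.142).

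HSPD1 read 6783.6 and 9974.3 in treated and untreated HT29 and 3941.8 and 7591.2 in treated and untreated Colo357 (-0.75 ± 0.34, limma SE; adjusted p = 0.199). Its partner HSPE1 differed less, with 3467.5 and 4154.7 in treated and untreated HT29 and 1564.1 and 1919.8 in treated and untreated Colo357 (-0.28 ± 0.34). DNAJA1 was the exception among the members: it read 2029.6 and 2175.2 in treated and untreated HT29 but 1663.3 and 1320.9 in treated and untreated Colo357, on the brighter of 2 probe sets that moved alike (0.12 ± 0.34 over both lines; 95% interval -0.62 to 0.85). In all, 17 of 19 probe sets were lower in both lines, where 37.7% of all were, and 10 of 19 had an unadjusted p under 0.05 and were lower, against 15.2% of all.

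**Figure D4:**
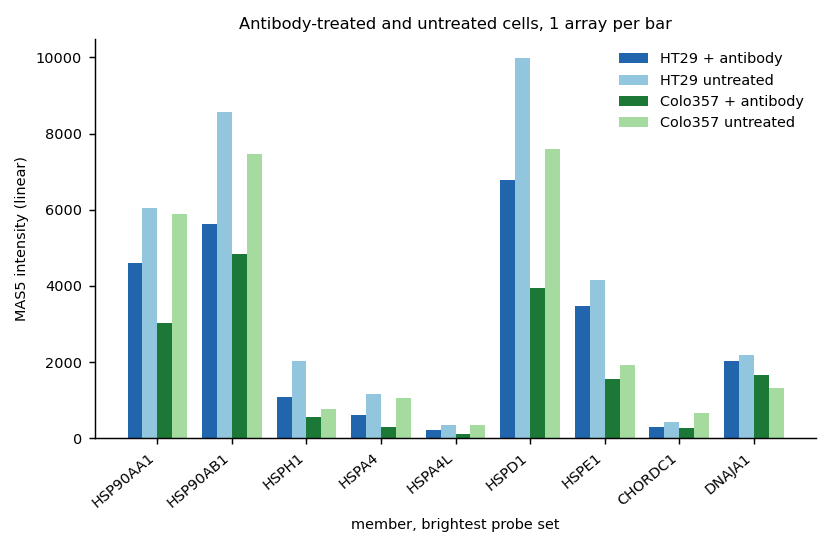
MAS5 intensity (vertical, linear) of the brightest probe set of each member in treated and untreated HT29 (blue) and treated and untreated Colo357 (green), 1 array per bar, to be compared within a gene. Treated bars are below untreated ones for every member in both lines, except DNAJA1 in Colo357 (1663.3 treated, 1320.9 untreated).

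Between the lines, 2 members passed the test, HSPH1 and HSPE1. HSPH1 read 561.2 and 772.1 in treated and untreated Colo357, against 1083.5 and 2021.3 in treated and untreated HT29, and the lines did not overlap. It was lower in Colo357 by 1.16 ± 0.34 and, on its second probe set, 1.44 ± 0.35 on the log2 scale (limma SE, n = 2 arrays a line; adjusted p = 0.0263 and 0.00874). HSPE1 read 1564.1 and 1919.8 in treated and untreated Colo357, against 3467.5 and 4154.7 in treated and untreated HT29 (-1.13 ± 0.34; adjusted p = 0.0277). The 3 of 19 probe sets called lie near the background, with 9.52% of 11785 called lower and 12.8% called higher, and so are no result about the members as a group. None of the 3 was called in a fit of all 8 arrays or without the block. The residual spread of the 8-array fit comes only from the 2-vector clones, not from arrays of the uncloned lines. Under quantile normalization, at an added value of 1 or without the filter, 1 was called. HSPD1, the partner of HSPE1, differed by -0.59 ± 0.34 (adjusted p = 0.246), and HSP90AA1 by -0.32 ± 0.35 and HSP90AB1 by -0.21 ± 0.34, with 95% intervals of -1.06 to 0.42 and -0.93 to 0.52.

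Levels can be ordered within each gene over the 8 arrays. Parental HT29 was highest at 13 of 19 probe sets and among the 2 highest at 18, and untreated Colo357 was highest at 5. The 1-vector clone was among the 2 lowest at 17 probe sets, the first 2-vector clone at 16 and antibody-treated Colo357 at 4. On the mean of the 9 genes, each centred on its own mean, the order from low to high was the 1-vector clone (-1.18), the first 2-vector clone (-0.97), treated Colo357 (-0.22), the second 2-vector clone (0.10), the GFP clone (0.26), treated HT29 (0.43), untreated Colo357 (0.61) and parental HT29 (0.97). Neighbours in the middle of this order differ by less than the 2 clones with 2 vectors do.

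The members shared this profile unequally. Each gene was correlated over the 8 arrays with the mean of the other 8, as a description of arrays that share controls and scaling. Pearson's r was 0.80 to 0.974 for 8 of the genes, highest for HSPA4L, and 0.315 for HSP90AB1. Outside the members, the 5 genes most like the mean profile among 7175 were CSE1L, a nuclear export receptor of importin alpha (r = 0.991), KPNA3, an importin alpha (0.989), INTS12 of the Integrator complex (0.988), SSB, the La RNA-binding protein (0.988), and ACTR3 of the Arp2/3 complex (0.981). CSE1L read 249.5, 302.6 and 1486.9 in the 3 CD24 shRNA clones, 1781.1 in the GFP clone and 3851.2 in parental HT29. In all, 327 of the 7175 genes (4.56%) correlated with the profile above 0.9, so the pattern of the 8 arrays was shared by many genes that are not chaperones.

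Other chaperone genes, each by its brightest probe set, gave a mixed picture in the CD24 shRNA clones, and none passed the limma test. Of all probe sets tested, 53.3% were lower, and the counts for several lists lie near that share. Of 6 other HSP70 and HSP110 genes with a probe set, 3 lay above the filter: HSPA13 (-1.78 ± 0.56, limma SE) and HSPA14 (-1.63 ± 0.67) were lower and HSPA2 was at 0.72 ± 0.44. Of 19 J-domain genes, 10 were lower and 9 higher, with DNAJC2, which assists folding at the ribosome, at -2.35 ± 0.63 and DNAJB4 at -1.81 ± 0.46 (31.6 or less in the clones, under the filter of 45), but DNAJC12 at 1.70 ± 0.53. HSPA13 and DNAJC2 also read under 45 in the 1-vector clone and the first 2-vector clone. DNAJC12 read under 45 in both controls (23.7 in the GFP clone and 4.4 in parental HT29) and in the first 2-vector clone (40.2). Of 13 HSP90 co-chaperones, 6 were lower and 7 higher (median 0.14), with the immunophilin FKBP5 at -1.72 ± 0.76 (14.2, 1.3 and 69.8 in the clones, the first 2 under that filter) and the myosin chaperone UNC45A at 1.19 ± 0.41. Of 7 genes of the HSP70 nucleotide exchange and binding list, 3 were lower and 4 higher, with BAG2 at -1.51 ± 0.66.

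Subunits of 1 complex went different ways in the clones. In the cytosolic CCT chaperonin, CCT6A (-1.45 ± 0.59, limma SE) and CCT8 (-1.19 ± 0.50) were lower while CCT3 (0.60 ± 0.35) and CCT7 (0.52 ± 0.38) were higher, with 5 of 7 subunits lower in all. In prefoldin, VBP1 was at -1.99 ± 0.65 and PFDN5 at 0.62 ± 0.39. Among mitochondrial chaperones and proteases, 8 of 11 were higher, with the mitochondrial HSP90 TRAP1 at 0.85 ± 0.39, and YME1L1, an inner membrane protease, at -1.44 ± 0.67. HSPB1, the small heat shock protein HSP27, read 5492.9, 6325.7 and 5928.8 in the 3 clones, against 5103.9 in the GFP clone and 3221.3 in parental HT29 (0.54 ± 0.37). The factor HSF1 itself read 702.5, 1082.3 and 573.9 in the clones, against 660.1 and 777 in the GFP clone and parental HT29 (0.08 ± 0.40). In the endoplasmic reticulum list 7 of 11 genes were lower, with the HSP90 paralogue HSP90B1 at -2.88 ± 0.90 and MANF at 1.23 ± 0.47.

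After the antibody, some other chaperones passed the same limma fit, in both directions, where 3.89% of all probe sets were called lower and 1.74% higher. HSPA2 rose by 1.93 ± 0.34 (SE; adjusted p = 0.0116), at 165.2 and 30.9 in treated and untreated HT29 and 1159.9 and 335.5 in treated and untreated Colo357. HSPA13, a microsomal HSP70, rose by 1.42 ± 0.34 (adjusted p = 0.0316), and it read 17.4 to 77 in the CD24 shRNA clones. The J-domain gene DNAJB2 rose as well (1.53 ± 0.34). Of 19 J-domain genes 3 fell, among them DNAJB6 (-3.13 ± 0.37, adjusted p = 0.00404) and DNAJC13 (-2.38 ± 0.34, adjusted p = 0.00529). Their treated readings lay under 45, at 13.2 in HT29 and 29.1 in Colo357 for DNAJB6 and 15.2 and 29.4 for DNAJC13. HSP90B1 fell too (-1.58 ± 0.37, adjusted p = 0.0297). None of the 13 HSP90 co-chaperones, 7 CCT subunits, 5 prefoldin subunits and 11 mitochondrial genes passed. The median of the CCT subunits was -0.43 with 6 of 7 lower, and that of prefoldin 0.46 with 5 of 5 higher. Of all probe sets in this fit 53.5% were lower, with a median of -0.05. Prefoldin subunits were 3 higher and 2 lower in HT29 alone, and 5 higher in Colo357 alone. Quantile normalization or leaving out the intensity filter ended all calls of this fit.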

How the data were processed

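RNA of 8 cell samples was hybridised to Affymetrix human GeneChip arrays. The deposited intensity values are linear signals from MAS5 (named without a version), per the submitters' processing notes. Values were used as deposited. Of 22277 probe sets, 62 controls were left out. Probe sets with 1 symbol in the platform annotation (19064) were named, with symbols updated through RefSeq's GRCh38.p14 gene table; those with several (1043) or none (2108) were not.

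Intensities were converted to log2(intensity + 10), which understates differences of dim genes. Each fit used the probe sets whose mean over its own arrays exceeded 45, the median of all non-control values. limma 3.58.1 (lmFit and eBayes, R 4.3.3) was run over all of them, with two-sided p-values adjusted by Benjamini-Hochberg. The antibody and line comparisons shared 1 fit of 4 arrays, with the other factor as a fixed block. Residual degrees of freedom were 3 for CD24 shRNA clones against both controls and 4 for 4 clones against uncloned HT29. The antibody and line fit had 1. Exact permutation tests were run only for the comparisons with 3 and 4 degrees of freedom, and can reach 0.1 and 0.0667 at the least. The SE is limma's moderated SE. Comparisons with 1 array in a group and no other array to measure its spread have no test, and 2-fold differences were counted. No label says that samples came from separate cultures. The p-values thus cover only the spread among these arrays, whose small number limits precision. Where a gene needed 1 value, the brightest of its single-symbol probe sets on average was taken. From each other list, up to 4 genes with the largest absolute differences were eligible to be named; likeness was ranked by Pearson's r with the members' mean profile, and 5 genes were named. Members, lists and rules were chosen with earlier results of these data known. Alternatives were quantile normalization, added values of 1 and 50, no filter, 1 probe set a gene, a fit of all 8 arrays, no block, and leaving out each array. The fit of all 8 arrays kept every group apart, so its residual spread came only from the 2-vector clones.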

Additional observations from a re-analysis of the deposited data

Results flagged for a closer look

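DNAJA1, the J-domain partner of HSP70, was the only member whose brightest probe set moved in opposite directions in the 2 antibody-treated lines. Its log2 difference was 0.33 in Colo357 and -0.10 in HT29, each from 1 treated and 1 untreated array, and its second probe set gave 0.31 and -0.21. The difference between the lines was not tested.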

How the results depend on the processing

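Treated and untreated arrays were paired by line in the antibody fit, where the line served as a fixed block. Treatment was the block when the lines were compared. The labels give no replicate numbers shared between groups, so no other pairing was used. In the CD24 shRNA comparison 0 probe sets passed, with 3 at an added value of 50 and 2 in a fit of all 8 arrays. Leaving out 1 array gave 0 to 1119 probe sets (1119 without the second 2-vector clone, 28 without the GFP clone) and 0 to 10 members. The clones against uncloned HT29 gave 268 probe sets, 15 to 491 when an array was left out (15 without treated HT29, 33 without untreated HT29, 80 without the second 2-vector clone, 111 without the 1-vector clone, 491 without the GFP clone), and 0 members throughout. HSP90AB1 there ranged from -0.31 to 0.29 and changed sign to 0.01, 0.02 and 0.29 in 3 of these.

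The antibody fit called 663 probe sets and 1 member. It called 79 probe sets at an added value of 1, 439 at 50, 25 with 1 probe set a gene, and 0 under quantile normalization, without the filter, in the fit of all 8 arrays and without the block; members called were 0 in these except at 50 (1), and HSPA4 was lost with 1 probe set a gene too. In these last 4 fits 2482, 3366, 551 and 674 had an unadjusted p under 0.05. Colo357 against HT29 called 2636 probe sets, with 1429 at 1 probe set a gene, 782 in the fit of all 8 arrays and 850 without the block. Of its 3 members, 1 was called under quantile normalization, at an added value of 1 and without the filter, and 0 in the fit of all 8 arrays and without the block. The causes were not tested.

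Counts at 2-fold changed with an added value of 50, no filter and 1 probe set a gene. They were 712, 2833 and 857 in place of 1407 for the antibody in HT29, 1838, 4370 and 1730 in place of 2865 in Colo357, and 503, 2105 and 636 in place of 1017 for 2 vectors against 1. For the GFP clone, no filter gave 4223 and 1 probe set a gene 1611 in place of 2540. Members for 2 vectors were 3 at an added value of 50 in place of 5. Leaving out a 2-vector clone gave 1111 to 2460 probe sets and 4 to 12 members. Quantile normalization moved the median of all probe sets in the CD24 shRNA comparison to 0.11, in place of -0.07, and the members' median to -1.31, in place of -1.54. For the GFP clone it gave -0.05 in place of 0.12 and, for members, -0.37 in place of -0.49.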

Other observations

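Genes outside the chaperones that also differed between the GFP clone and parental HT29 included subunits of the proteasome, the protease that degrades ubiquitin-tagged proteins. Of 27 subunits, 25 were lower in the GFP clone, 6 of them by 2-fold or more, where 43.6% of all probe sets were lower and 6.35% by 2-fold or more, with a median of -0.70 against 0.12 for all probe sets. In the CD24 shRNA clones against both controls the same list had 11 lower and 16 higher (median 0.26), with PSMC6 at -1.90 ± 0.67 and PSMA3 at -1.57 ± 0.67 (limma SE), and none passed the test. Of 25 cell cycle genes, 24 were lower in the GFP clone than in parental HT29, 15 of them by 2-fold or more. The shares over all probe sets are those just given. In the CD24 shRNA clones against both controls 15 of 25 were lower (median -0.08), where 53.3% of all probe sets were. The GFP clone is part of that reference. With all 4 shRNA clones set against uncloned HT29, 23 of 25 cell cycle genes were lower, 9 by 2-fold or more. Their median was -0.83, against 0.00 for all probe sets. Of the proteasome subunits 18 of 27 were lower there (median -0.34), and no gene of these 2 lists passed the test. The GFP clone against parental HT29 is 1 array against 1 and has no test. The part of cell cycle gene levels in the chaperone values was not tested.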
